A study of Canis lupus familiaris and Eptesicus fuscus and Equus caballus with 6 samples.

Results

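The bat SINE models were the 41 repeat models, of 511 in the table for the big brown bat (Eptesicus fuscus), that the file put in the class NONLTR/SINE and whose names did not start with MIR. Of these, 32 had names that start with VES and 9 had other names. They were read in 1 mRNA library from frozen adult bat testes, from which total RNA was extracted with TRIzol. The number of animals behind this library is not given in the sources used here. The series holds 6 libraries, 1 small RNA and 1 mRNA library each from the testes of dog, horse and bat, and studied elements and piRNAs in taxa with distinct element activity. With 1 library in each group there was no replicate check, and no difference below was tested across samples.

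SINEs are short retrotransposons that code for no protein and depend on the enzymes of LINEs to be copied. VES is the tRNA-derived SINE family of vesper bats, the family of bats to which Eptesicus belongs. Such SINEs carry an internal promoter for RNA polymerase III, but copies that lie inside genes are also carried along in longer transcripts. A read on a SINE model does not show which of the 2 kinds of RNA it came from. The file holds repeat models only, so the tissue label could not be checked with host genes.

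A count and a level describe each model. The expected count is the number of reads that RSEM assigned to it, including parts of reads that fit several models. TPM, the usual unit of transcript abundance, is a level per length, scaled over the 511 models of this file alone, and it is the scale used here to compare models. The deposited TPM interval gives the range that the reads allow for a model, and it covers neither biological nor preparation error. The library held 55904 expected counts on all models.

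VES made up nearly all of the SINE signal in the bat testis, and every VES model had reads. The 41 SINE models together had 7839 expected counts, 14.02% of all counts in the file (exact 95% interval 13.7 to 14.3%). VES models held 7717 of these (98.4%, 98.1 to 98.7%), and the 9 other models held 122 (1.56%, 1.29 to 1.86%). All 32 VES models had an expected count above 0, as had 75.0% of the 511 models in the file. Of the 9 other SINE models, 4 had reads and 5 were silent, that is, listed with an expected count of 0. The names of 3 of the 9 start with PVAM and of 5 with RFER. Whether the genome of this bat holds copies of them was not examined, so silent does not mean present but unexpressed. The VES share depends likewise on which models the file lists. At least 10 counts were found for 32 VES models and for 2 of the others, against 52.6% of all models.

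The SINE models were short, and their level per length was high for this library. Their median length was 210 nt, and they took 1.93% of the summed length of all models (each length less 24 nt, the correction in the deposited TPM) with 14.02% of the counts and 38.6% of the TPM. By TPM, 5 of the 10 highest models in the file, 13 of the 20 highest and 25 of the 50 highest were among the 41, which were 8.02% of all models. By expected count none of the 10 highest models was a SINE, and 3 of the 20 highest were. VES.SUB12, the first SINE by either measure, stood at place 2 by TPM and at place 12 by count.

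The 32 VES models had a median of 8155 TPM and ran from 1011 to 36029 TPM. Their expected counts ran from 19.4 to 724, with a median of 164. Among the models of other classes with reads, the median was 388 TPM for 22 LINE models, 235 TPM for 150 LTR models, 658 TPM for 87 DNA transposon models and 700.1 TPM for 84 Helitron models. By the classes in the file, no LINE model, 1 LTR model, 11 DNA transposon models and 2 Helitron models lay above the median of VES. The file put the MLUC.HAL1 models among the DNA transposons, but PVAM.HAL1-3_PVA, of the same HAL1 name, among the LINEs. It also put the MER41, MER87 and MER101 models with the suffix _ML among the DNA transposons. Classes were used as given and were not checked model by model. MLUC.HAL1-1A_ML, at 8800 TPM, was among the 11, and MLUC.HAL1-1B_ML, at 658 TPM, was the median DNA transposon model. The unknown class went the other way, with a median of 16399 TPM over 3 models with reads, of which PVAM.R255 and PVAM.R368 lay above the median of VES. All 32 VES models lay above 376 TPM, the median of the 347 models with reads outside the 41. Of those 347 models, 252 were below the lowest VES model and 1 was above the highest. The latter was PVAM.R255, of unknown class, at 101621 TPM. LINEs, without the MLUC.HAL1 models, held more counts than SINEs (24.05% of all) at 2.07% of the TPM, on models with a median length of 5985 nt. Models listed with the same expected count and TPM as another model were counted separately here. NHELIBAT1A_PSU and NHELIBAT1_PS, at 700.1 TPM each, stood at the Helitron median. NHAT-3A_NHU and NHAT3_NH, at 8414 TPM each, were both among the 11 DNA transposon models above the median of VES. NHELIBAT1A_CRA and NHELIBAT1_CR, at 7699 TPM each, lay below that median.

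**Figure D1:**
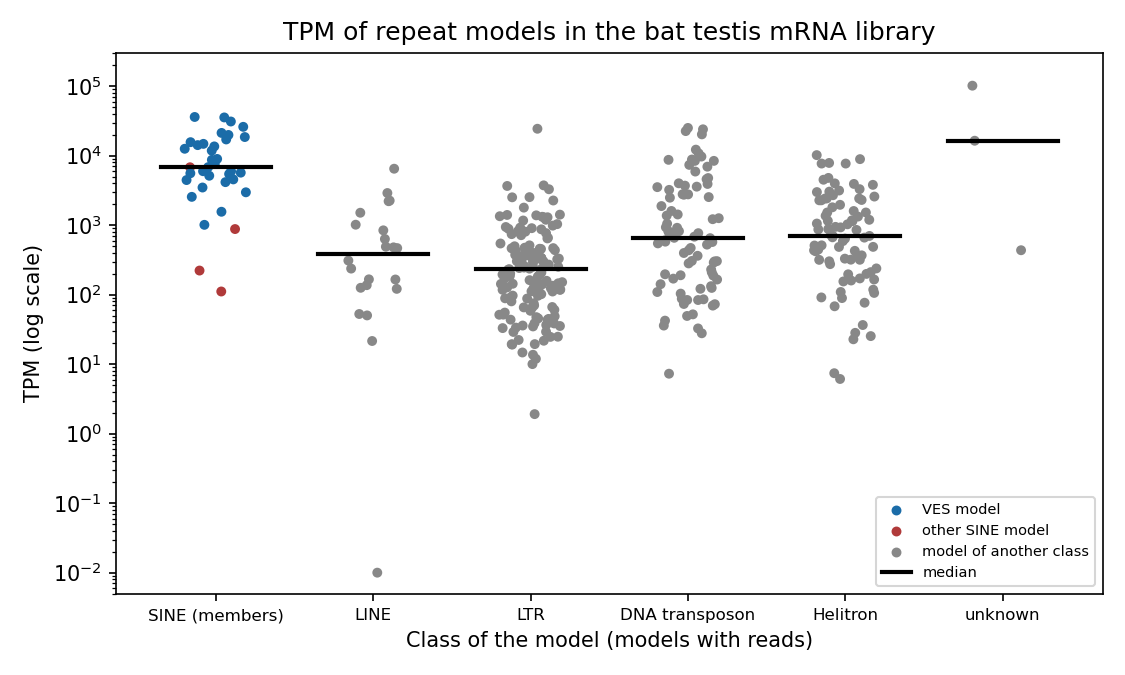
TPM (log axis) of the repeat models with reads in the bat testis mRNA library, by class, without those whose names start with MIR. VES models are in blue, other SINE models in red and models of other classes in grey, with the class median as a bar. The VES models lie between 1011 and 36029 TPM, while 3 of the 4 other SINE models with reads lie below every VES model.

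At the top of the VES order stood 5 models above 20000 TPM, which held 39.03% of the VES counts. VES.SUB12 had 724 expected counts and 36029 TPM (deposited interval 31309 to 39763). VES_MD had 713 counts and 35478 TPM (29787 to 39790). Their TPM ratio of 1.02 lay between bounds of 0.787 and 1.33, formed from the ends of both intervals, so that the 2 leading models overlapped. VES.SUB13 followed with 623 counts and 31009 TPM (27271 to 33897), and VES3_ML with 525 counts and 25988 TPM (22872 to 28619). VES.SUB12 was 1.39 times VES3_ML (bounds 1.094 to 1.74), and their intervals did not overlap. VES.SUB18 closed this group with 427 counts and 21241 TPM (18794 to 23379).

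A further 9 VES models lay between 10000 and 20000 TPM and held 37.2% of the VES counts. VES.SUB25 had 401 counts and 19852 TPM (16798 to 22530), and VES.SUB21 had 361 counts and 18536 TPM (16005 to 20720). VES2_ML, the longest VES model with 256 nt, had 429 counts but 17109 TPM (15271 to 18606). It was thus the fifth VES model by count and the eighth by TPM. VES.SUB1 had 316 counts and 15636 TPM (12705 to 18342), VES.SUB3 had 294 counts and 14788 TPM (11945 to 17153), and VES4_ML had 311 counts and 14182 TPM (12490 to 15673). The intervals of these 3 models overlapped one another. VES.SUB34 had 273 counts and 13584 TPM (10773 to 16749), VES.SUB27 had 247 counts and 12568 TPM, and VES.SUB17 had 238 counts and 11824 TPM.

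Between 5000 and 10000 TPM lay 10 VES models with 17.3% of the VES counts. VES.SUB16 and VES.SUB10 were close, with 180.2 and 176 counts and 8967 and 8705 TPM. VES.SUB11 had 151 counts and 7604 TPM with a wide interval of 5282 to 10036, and VES.SUB9 had 139 counts and 6833 TPM. Within a narrow range came VES.SUB26 at 5977 TPM, VES.SUB20 at 5952, VES.SUB31 at 5696, VES2B_ML at 5579, VES.SUB8 at 5449 and VES.SUB15 at 5142. Their counts ran from 103 for VES.SUB15 to 127 for VES.SUB20. The intervals of these 6 models all overlapped.

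The 8 VES models below 5000 TPM held 6.47% of the VES counts. VES.SUB4 had 90.1 counts and 4555 TPM, VES.SUB6 had 89.1 counts and 4456 TPM, and VES.SUB23 had 83.6 counts and 4159 TPM. VES.SUB22 had 70.7 counts and 3481 TPM, VES.SUB29 had 65.2 counts and 2971 TPM, and VES.SUB14 had 50.2 counts and 2555 TPM. The lowest were VES.SUB32 with 30.8 counts and 1559 TPM (972 to 2310) and VES.SUB30 with 19.4 counts and 1011 TPM (539 to 1568). VES.SUB12 was 35.6 times VES.SUB30 in TPM, with bounds of 19.97 and 73.8. Both models are of nearly the same length, 210 and 202 nt.

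**Figure D2:**
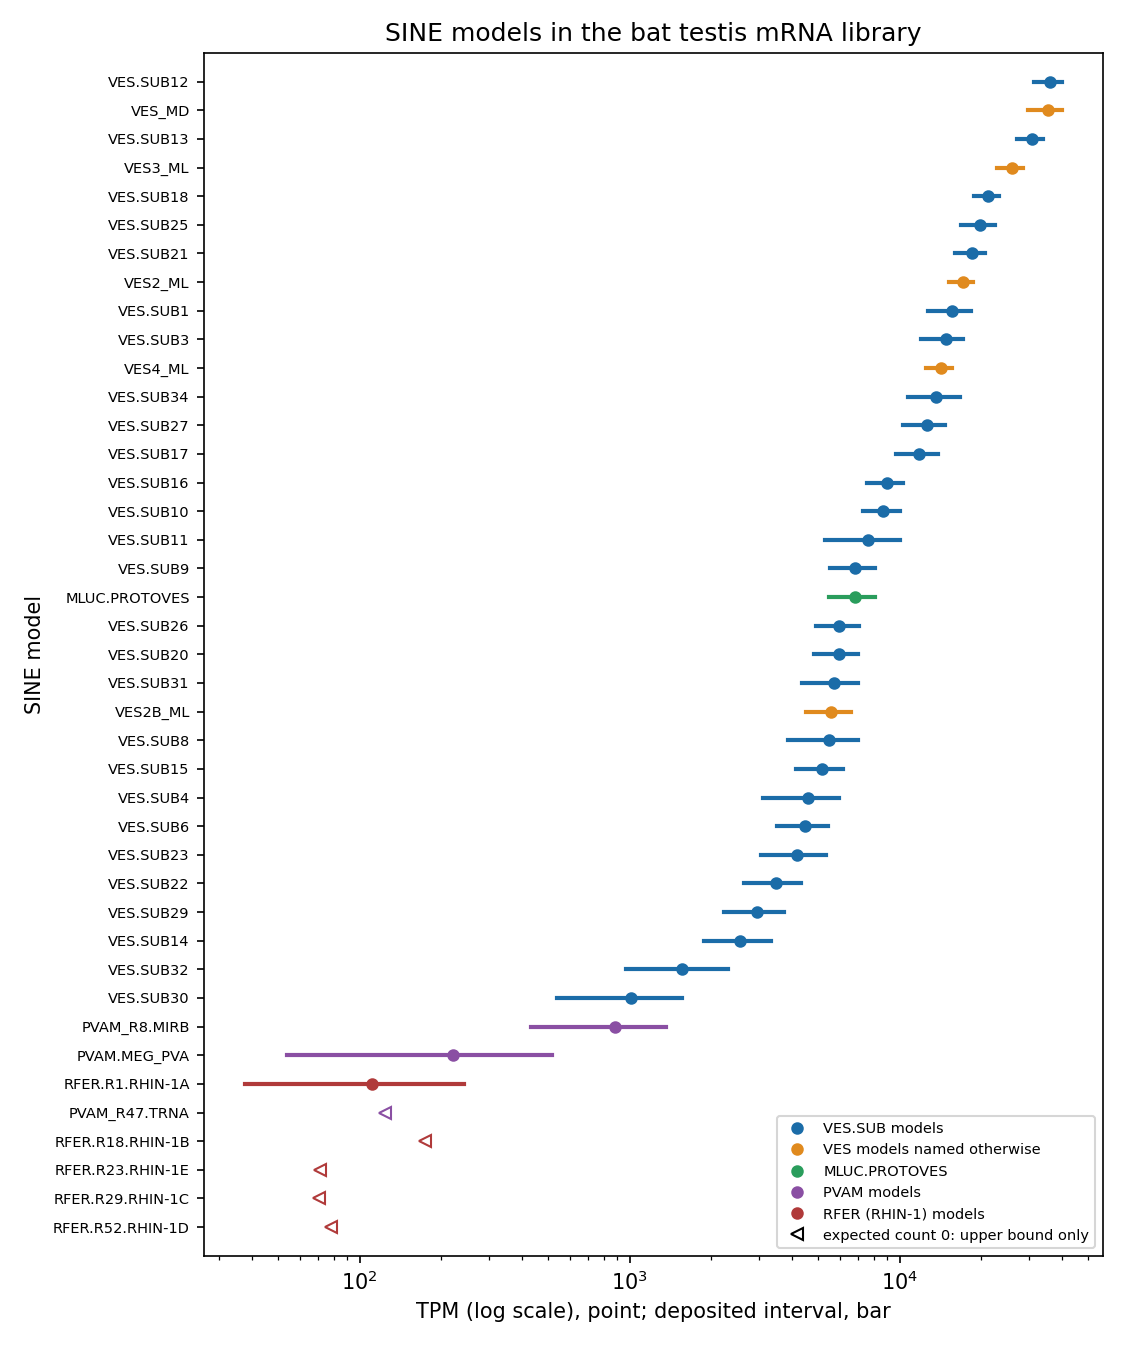
TPM (log axis) of the 41 SINE models in the bat testis mRNA library, as points with the deposited interval as bars, coloured by name group. Open triangles are the upper bounds of the 5 models with an expected count of 0. The VES models run from 36029 down to 1011 TPM, and the RHIN-1 models lie below them.

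Neighbouring VES models in the TPM order differed by at most 1.64 times, between VES.SUB14 and VES.SUB32, and the deposited intervals of all 31 neighbouring pairs overlapped. Intervals are wider at low counts, so overlap there says little about how close 2 levels are. Of all 496 pairs of VES models, 385 (77.6%) had intervals that did not overlap. The same shares were not computed over all models of the file, so neither figure is shown to be particular to VES. VES.SUB18, at place 5, was the first below VES.SUB13 whose interval lay wholly under that of VES.SUB13, and VES.SUB16, at place 15, was the first that lay wholly under VES.SUB1, VES.SUB3, VES4_ML, VES.SUB34 and VES.SUB27. Intervals of related models are not independent, since a read given to 1 of them is taken from another. The 8 SINE models with most counts held 53.6% of the SINE counts and 23 models held 90.8%. The leading one, VES.SUB12, held 9.24% (8.60 to 9.90%).

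VES models fell into those numbered as VES.SUB and those with other names, and levels of the 2 sets overlapped. The 27 VES.SUB models held 5618 counts (71.7% of SINE counts) with a median of 6833 TPM. The 5 others, VES_MD, VES3_ML, VES2_ML, VES4_ML and VES2B_ML, held 2099 counts (26.8%) with a median of 17109 TPM. VES.SUB levels ran from 1011 to 36029 TPM and the other 5 from 5579 to 35478 TPM. VES2_ML was 3.07 times VES2B_ML in TPM (bounds 2.31 to 4.13), although their names are close. VES models of 202 to 212 nt, 27 in number, had a median of 8705 TPM, and the 5 of 222 to 256 nt had a median of 5952 TPM, within the range of the shorter ones. Over all 32 VES models the rank correlation (Spearman) of length and TPM was 0.248, of the opposite sign, so no trend with length is claimed.

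For part of the VES models the deposited interval was wider than the read count alone would make it. The width of each deposited TPM interval was divided by the width of an exact 95% Poisson interval for the same count. If the deposited intervals are also at 95%, a level that the file does not give, a ratio near 1 means a width of counting error alone. RSEM intervals widen where reads fit more than 1 model. For the 235 models outside the 41 with at least 10 counts the median ratio was 0.974, and for the 32 VES models it was 1.19, with a range of 0.984 to 1.92. A ratio of at least 1.5 was reached by 7 of 32 VES models, against 8.92% of all 269 models with at least 10 counts. Outside the 41 models 17 of 235 reached it, up to a ratio of 8.53. Of these 17, 12 were models listed with the same expected count and TPM as another model, such as NHELIBAT1A_NHU and NHELIBAT1_NH. Without such models, a setting chosen after seeing the data, 5 of 223 outside the 41 (2.24%) reached it, with a highest ratio of 2.62, and 4.67% of all 257 models did. No SINE model among the 41 had such an identical entry.

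The 7 VES models with wide intervals held 33.4% of the VES counts. They were VES.SUB11 (1.92), VES_MD (1.90), VES.SUB34 (1.83), VES.SUB1 (1.61), VES.SUB12 (1.60), VES.SUB3 (1.52) and VES.SUB8 (1.51), all from 208 to 211 nt long. Just under the threshold lay VES.SUB4 at 1.48 and VES.SUB25 at 1.46. VES2_ML, VES4_ML and VES2B_ML, which are 225 to 256 nt long, had ratios of 1.02, 0.995 and 1.03. No VES model longer than 212 nt was among those with wide intervals, but only 5 were that long. Some models of 208 to 211 nt also had ratios near 1, such as VES.SUB16 at 1.01 and VES.SUB26 at 0.984. Counts that are not whole show split reads, and 31 of 32 VES models had an expected count that was not whole (farther than 0.005 from a whole number), but so had 86.2% of the 347 models with reads outside the 41. VES.SUB3, with 294.0, was the exception.

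**Figure D3:**
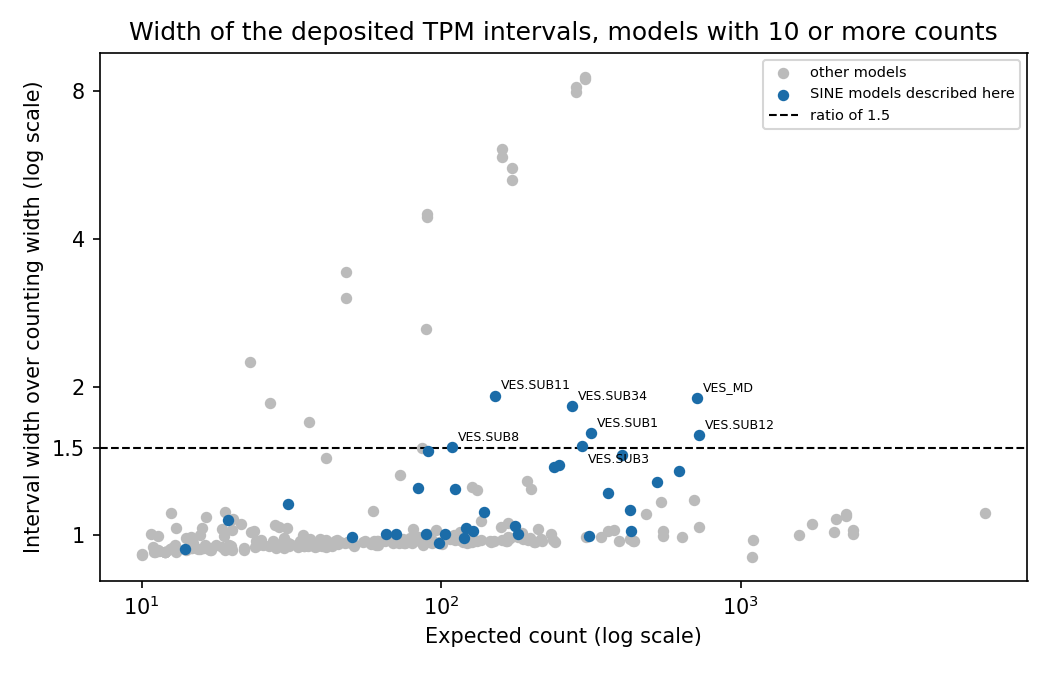
Width of the deposited TPM interval over the width of an exact Poisson interval for the same count, against the expected count, for the 269 models with at least 10 counts (both axes log). The SINE models are in blue and the dashed line marks 1.5. Most models lie near 1, and the 7 named VES models lie between 1.5 and 1.92.

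Among the 9 models with other names, MLUC.PROTOVES alone lay within the TPM range of VES. It was the shortest of the 41 models with 158 nt, and had 98.6 counts and 6808 TPM (5457 to 8115). Its interval overlapped those of 11 VES models, lay under those of 14 and above those of 7. VES.SUB12 was 5.29 times PROTOVES in TPM (bounds 3.86 to 7.29). The PROTOVES interval was about as wide as the Poisson interval for its count, with a ratio of 0.962.

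The 3 models whose names start with PVAM were low or silent. PVAM_R8.MIRB, of 171 nt, bears the name of MIR, an ancient tRNA-derived SINE of mammals, and had 13.96 counts and 879 TPM (433 to 1364). Its interval overlapped that of VES.SUB30, the lowest VES model. PVAM.MEG_PVA, whose name recalls the MEG SINEs of fruit bats, had 4.39 counts and 222 TPM (53.6 to 514), under the interval of VES.SUB30. PVAM_R47.TRNA, of 248 nt, was silent.

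Of the 5 RHIN-1 models, named like a SINE of horseshoe bats, 1 had reads. RFER.R1.RHIN-1A, the longest of the 41 models with 456 nt, had 5.19 counts and 111 TPM (37.7 to 243). VES.SUB30 was 9.10 times this model in TPM (bounds 2.22 to 41.6). The silent RHIN-1 models were RFER.R18.RHIN-1B, RFER.R29.RHIN-1C, RFER.R52.RHIN-1D and RFER.R23.RHIN-1E. The RHIN-1 models together held 0.0662% of the SINE counts (0.0207 to 0.149%).

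The 5 silent models, PVAM_R47.TRNA and these 4, were 12.2% of the 41 SINE models, where 25.0% of all models in the file had an expected count of 0. A count of 0 allows up to 3 counts, or 0.0383% of the SINE counts. The deposited upper bounds of these 5 models came to between 2.94 and 2.995 counts. In TPM the upper bounds ran from 70.5 for RHIN-1C to 175 for RHIN-1B. Against a floor of 3 counts in this library, the lower end of the interval of VES.SUB30 (539 TPM) was at least 3.05-fold higher than RHIN-1B and at least 7.495-fold higher than RHIN-1C.

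The main tRNA-derived SINE families of dog and horse, SINEC and ERE, were set beside VES by how TPM was spread over their models. TPM levels of the 3 files are scaled over different sets of models and were not compared, so only shares within a family are given. In dog, SINEC_Cf took 31.8% of the TPM of 12 SINEC models, and in horse, ERE1 took 31.4% of the TPM of 14 ERE models. In bat, VES.SUB12 took 9.52% of the TPM of 32 VES models. The leading model lay above the second without overlap of intervals in dog and horse, but not in bat. The 3 leading models reached 64.8% for SINEC, 64.6% for ERE and 27.1% for VES. With the 5 leading models these shares were 90.6%, 83.02% and 39.6%.

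The effective number of models is the number of equally high models that would give the same concentration (the inverse of the sum of squared shares). It was 5.22 for SINEC, 5.64 for ERE and 19.5 for VES. Per model in the family it was 0.435, 0.403 and 0.608. The family with more models could reach a higher number, and how finely each family was divided into models was set by the reference sets. Levels spanned 970-fold from SINEC_Cf to SINEC_Fc2, the lowest SINEC model with reads, 310-fold from ERE1 to ERE4B and 35.6-fold over VES. The 9 leading SINEC models held 98.9% of the SINEC TPM and the 10 leading held 99.97%. For ERE, the 12 leading models held 99.1% and the 13 leading held 99.9%. The dog and horse spans thus turn on 1 low model each, SINEC_Fc2 and ERE4B. SINEC_Fc was listed at 0, and no ERE or VES model was. Both SINEC_Fc and SINEC_Fc2 were counted among the 12 SINEC models, so the per-model value of 0.435 includes them. Whether either has copies in the dog genome was not examined. Each family held nearly all SINE TPM of its file, MIR models included: 99.6% for SINEC, 98.1% for ERE and 97.8% for VES.

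**Figure D4:**
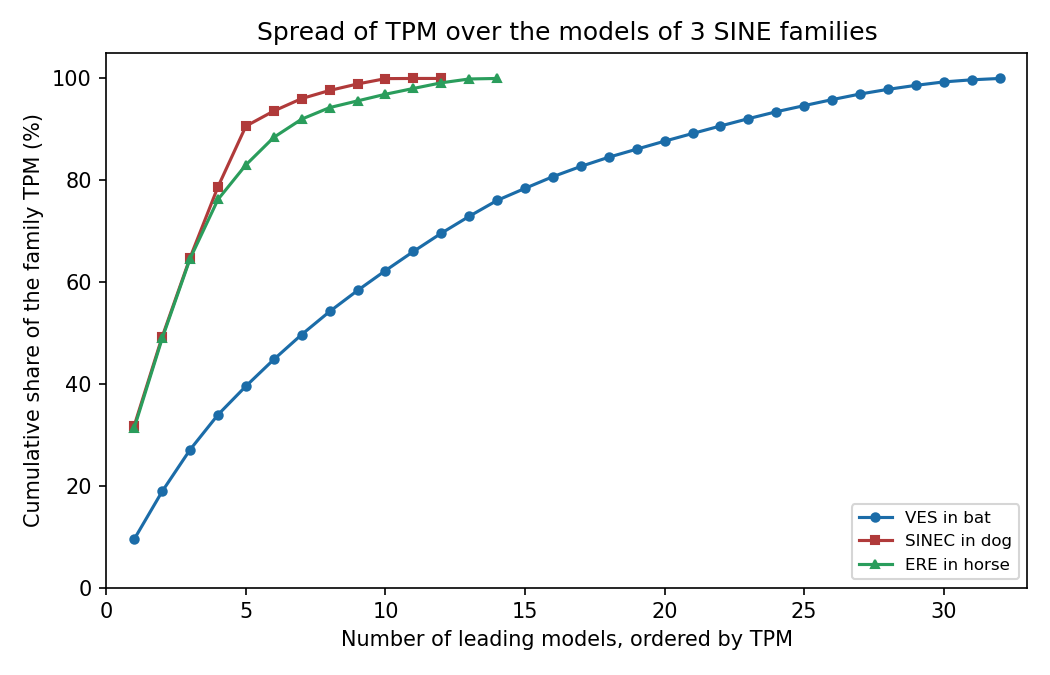
Cumulative share of the family TPM (in percent) against the number of leading models, ordered by TPM, for VES in bat (32 models), SINEC in dog (12) and ERE in horse (14), 1 library each. The 3 leading models reach 64.8% in dog and 64.6% in horse but 27.1% in bat.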

How the data were processed

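Testes were frozen and extracted with TRIzol, per the labels' protocols. Bowtie and RSEM (no version) and the build CanFam3.1 stand in the submitters' processing notes of all samples, bat included. The reference set behind the bat models is not given in the sources used here. The authors deposited RSEM expected counts, TPM and TPM interval bounds for each repeat model, as the file headers show. The model length in the deposited file was used as given, and the ratio of count to TPM followed length minus 24.0 nt (largest deviation 0.00489% over 101 models with at least 100 counts). The interval level is not given in the file. For dog and horse the deposited TPM was used. Reads were not placed on element sequences, so no small RNA was assigned to a SINE.

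Exact (Clopper-Pearson) 95% intervals were computed from counts rounded to whole numbers, and they cover counting error only. No test across samples was possible with 1 library in each group. Scripts were tested on simulated data (Python 3.11.15, SciPy 1.17.1). Named models were all members with at least 3 counts and the silent ones. The members, groups and lists were chosen with earlier results of these data known. Alternatives were other thresholds, TPM in place of counts, and other memberships.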

Additional observations from a re-analysis of the deposited data

How the results depend on the processing

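The SINE share of 14.02% was 38.6% when taken of TPM in place of expected counts, since the models are short. The other planned settings left it within its interval: MIR models included, only models with at least 10 counts, and counts rounded per model. Further settings were chosen after seeing the data. Without L1-4A_EF, the model with most counts, the share was 15.9%, and as a share of TPM without PVAM.R255 it was 43.02%. The VES share of 98.4% was 97.9% by TPM and 99.7% with PROTOVES counted as VES. The number of silent SINE models was 5 at an expected count of 0, under 1 and under 3, and 7 under 10. The median TPM of VES was 14.8 times that of the 4 other models with reads, 2.12 times that of the 2 with at least 10 counts, and 34.2 times when PROTOVES was counted as VES, so this ratio turns on PROTOVES and a few low models. With silent models kept, the median of the others was 0 and no ratio exists. Posterior mean counts and TPM were not run, since the columns used hold no such values. No paired analysis was possible because each group held 1 library. The number of genomic copies of each model and the strand of the reads were not analysed here.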

Other observations

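The 2 SINE models of the bat file whose names start with MIR stood outside the 41. MIRB had 11.1 expected counts and 422 TPM (deposited interval 205 to 709.97), and MIR was silent with an upper bound of 192 TPM. The interval of MIRB overlapped that of PVAM_R8.MIRB (433 to 1364 TPM), the model with MIRB in its name among the 41. It also overlapped that of VES.SUB30 (539 to 1568 TPM), the lowest VES model.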
